A study of Mus musculus with 4 samples.

Results

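Enzymes that add methyl groups to the lysines of histones H3 (writers) and that remove them (erasers), with the core partners of the H3K27 writer, were examined as a set of 34 genes matched by symbol. Of these, 33 had a feature (a probe set of the array) annotated with their symbol alone, among 18920 genes with such a feature. Ash1l had none in the annotation used and was not analysed here. A gene with several features was represented by the one with the highest mean.

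Cells were sorted from retinas of BAC-Crx-EGFP mice on the 129Sv/Ev background at E17.5, late in embryonic development. In these mice green fluorescent protein is expressed from a bacterial artificial chromosome under the regulatory sequences of Crx, a transcription factor gene of photoreceptors and their precursors. Each fraction gave 2 samples with an array apiece, and both came from that genotype, so the transgene was carried by the negative cells too. The comparison asks how the profile of cells with an active Crx reporter differs from that of the other retinal cells. Whether the replicates are separate animals or sorts is not stated, so p-values cover only the variation among these 4 samples, which could be technical. Folds and log2 differences rest on a linear scale of the deposited intensities, which was inferred from their range.

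The methyl marks differ in what they accompany. Methylation of lysine 4 of H3 (H3K4) marks promoters and enhancers, that of H3K36 and H3K79 marks transcribed genes, and that of H3K9 and H3K27 marks silenced chromatin. The H3K27 mark is laid by Polycomb repressive complex 2, whose catalytic subunit is Ezh2, mostly in dividing cells, or Ezh1, which is also present in cells that no longer divide. In the developing retina Ezh2 is known from progenitor proliferation and the H3K27 demethylase Kdm6b from the maturation of a subset of bipolar cells.

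The fractions differed as their labels say. Of 13 photoreceptor precursor markers 10 were higher in the positive fraction (limma adjusted p under 0.05), namely Crx, Otx2, Rbp3, Prdm1, Neurod1, Gnat2, Gnb3, Pde6c, Cngb3 and Pdc, and the list's summed intensity was 25899.1 and 32672.5 on the positive arrays against 4448.3 and 4490.8 on the negative arrays. All 25 measured cell cycle markers had a log2 difference below 0. None of them was called by limma, 22 had an unadjusted p under 0.05, and the median log2 difference was -1.11. Their summed intensity was 30802.5 and 16546.8 in positive replicates 1 and 2 and 53301.3 and 43589.8 in the negative ones, so positive replicate 1 lay closer to the negative arrays. Of 16 retinal progenitor markers limma called Sox2 lower and Fabp7 higher, with 12 below 0 and 4 above. At an unadjusted p under 0.05, 9 were lower and 1 higher, against 9.83% and 9.34% of all features. Of 13 amacrine and horizontal cell markers Tfap2a and Tfap2b were called higher, with 12 above 0 and 1 below. At the unadjusted level 9 of them were higher and none lower. The summed intensity was 34387.4 and 28150.7 against 43812.9 and 44385.5 for the progenitor list and 7623.0 and 9519.4 against 5488.5 and 5240.8 for the amacrine and horizontal cell list. No retinal ganglion cell marker was called (1 of 17 had an unadjusted p under 0.05), and the summed intensity of the list was 7969.9 and 13811.3 on the positive arrays against 6645.0 and 14617.4 on the negative arrays. Of 12 erythroid, endothelial, microglial and pigment cell markers none was called by limma or had an unadjusted p under 0.05, and their summed intensity was 4375.5 and 2372.0 against 6225.4 and 4127.4. Most of this sum was Kdr, with 3171.2 and 1107.0 against 4888.5 and 2883.9, and the other 11 genes summed to 1204.3 and 1265.0 against 1336.9 and 1243.5. No marker read 0 on any array, but the lowest value of any feature was 18.9, so this does not show that each marker was expressed. The part of these cell types in the results below was not tested, and in sorted fractions fewer cells of a type and less RNA per cell cannot be told apart.

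Demethylase genes gave the 3 largest differences among the 33 genes, and all calls were toward the EGFP-positive fraction. Kdm5b, an eraser of H3K4 methylation, was 2.33-fold higher, Kdm7a 2.15-fold, Kdm6b 1.95-fold and the methyltransferase gene Ezh1 1.70-fold. These 4 were the members called at an adjusted p under 0.05 (limma, Benjamini-Hochberg over all 22431 features), against 0.82% of all features called higher and 1.59% of the 9031 features at least as bright as the dimmest member. None was called lower, against 0.143% of all features, and none was lower at an unadjusted p under 0.05, against 9.83%. At an unadjusted p under 0.05, 15 of 33 were higher, against 9.34% of all features and 16.8% of the features at least as bright.

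The group as a whole leaned toward the positive fraction. Its genes were chosen with earlier results of these data known, so the lean is a description and was not tested. Of the 33 genes, 27 had a log2 difference above 0, as did 47.8% of all features and 48.5% of those at least as bright as the dimmest member. The median log2 difference was 0.31, against -0.01 over all features. The arrays of the fractions did not overlap for 25 genes in the positive direction, against 22.3% of all features and 30.2% of those at least as bright, and for 3 in the negative direction, against 25.3%. A log2 difference of at least 0.5 in size was found for 9 genes, all higher in the positive fraction, against 10.9% of all features in either direction. The median was 0.23 over the 18 writers and partners and 0.37 over the 15 erasers, of which 14 lay above 0. The genes were bright, at percentiles 59.7 to 98.2 of mean intensity, and 30 of 33 lay above percentile 75.

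The calls depended on single arrays. Without positive replicate 1 or positive replicate 2, limma called other sets of members and other numbers of features over the whole array. Without negative replicate 1 or negative replicate 2 it called no member and no feature of the whole array. The log2 difference of Kdm5b stayed between 1.20 and 1.24 in these fits and that of Kdm6b between 0.95 and 0.97. It lay between 0.99 and 1.22 for Kdm7a and between 0.73 and 0.81 for Ezh1.

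**Figure D1:**
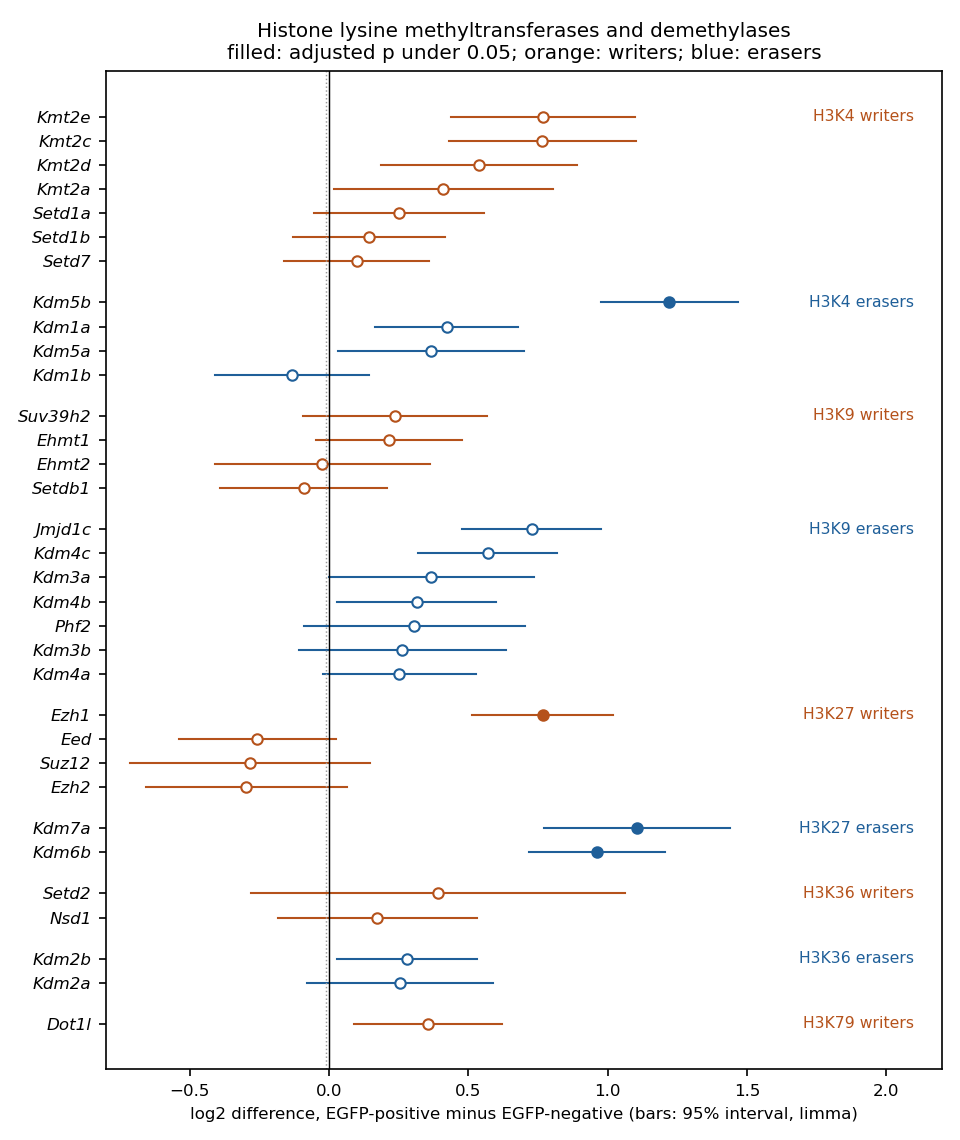
Log2 difference between EGFP-positive and EGFP-negative arrays for 33 genes, by mark, with writers (and core partners) in orange and erasers in blue; bars are 95% intervals from limma and filled points passed an adjusted p of 0.05. The 4 filled points are Kdm5b, Kdm7a, Kdm6b and Ezh1, while Ezh2, Eed and Suz12 lie left of 0 with intervals that include 0; the dotted line is the median of all features.

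Erasers of H3K4 methylation differed among themselves. Kdm5b removes tri- and dimethyl groups from H3K4 through its jumonji domain. Its intensity was 4209.8 and 4305.1 in positive replicates 1 and 2, against 1811.3 and 1842.1 in negative replicates 1 and 2 (the order used throughout). Both positive arrays were more than 2-fold above both negative arrays, and the replicates of each fraction lay close together. The log2 difference was 1.22 ± 0.10 (SE, n = 2 per fraction, limma adjusted p = 0.0151). Kdm5a, its close relative that binds the retinoblastoma protein, read 1704.1 and 2044.5 against 1516.4 and 1384.9 (0.37 ± 0.13, limma adjusted p = 0.228). Its fractions did not overlap, but positive replicate 2 stood above the other 3 arrays.

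The flavin-dependent erasers of H3K4 were not called. Kdm1a, the demethylase of the CoREST corepressor complex, read 2357.3 and 2355.7 on the positive arrays against 1695.1 and 1823.0 on the negative arrays. Both positive arrays were alike and above both negative arrays (log2 difference 0.42 ± 0.10, limma adjusted p = 0.120). Kdm1b, a related demethylase known from growing oocytes, was the 1 eraser with a difference below 0 (-0.13 ± 0.11, limma adjusted p = 0.617).

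All 7 H3K4 writers had a difference above 0 with fractions that did not overlap, against 22.3% of all features and 30.2% of those at least as bright as the dimmest member. At an unadjusted p under 0.05, 4 were higher, against 9.34% and 16.8%. None was called by limma with all arrays and no replicate term. Kmt2c differed by 0.62 to 0.91 and Kmt2e by 0.64 to 0.90 with each array left out in turn. Both differences were largest when positive replicate 1 was dropped and smallest when positive replicate 2 was dropped. Kmt2e, a member of the MLL family known as a reader more than as an enzyme, read 1975.7 and 2362.0 against 1322.6 and 1215.5 (0.77 ± 0.13, limma adjusted p = 0.0766). Kmt2c, which monomethylates H3K4 at enhancers, read 1385.3 and 1688.7 against 875.9 and 924.2 (0.77 ± 0.13, limma adjusted p = 0.0785). For both, positive replicate 2 was the highest array. Kmt2d, the partner enzyme of Kmt2c at enhancers, read 1050.9 and 1036.8 against 804.0 and 641.7 (0.54 ± 0.14, limma adjusted p = 0.133). Here the spread lay in the negative arrays, and a dimmer feature of Kmt2d, which read 266.3 and 387.0 against 289.0 and 288.6, differed by 0.15 ± 0.19, with positive replicate 1 below both negative arrays.

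The remaining H3K4 writers differed less. Kmt2a, which maintains Hox gene expression, read 1596.3 and 2054.1 against 1439.2 and 1289.5 (0.41 ± 0.16, limma adjusted p = 0.245). Setd1a and Setd1b, which lay the bulk of promoter trimethylation, differed by 0.25 ± 0.12 and 0.14 ± 0.11, and Setd7, a monomethyltransferase with many non-histone substrates, by 0.10 ± 0.10. The second feature of Setd1b differed by 0.50 ± 0.12 (unadjusted p = 0.00740, limma adjusted p = 0.117), more than the brighter one kept for the gene.

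**Figure D2:**
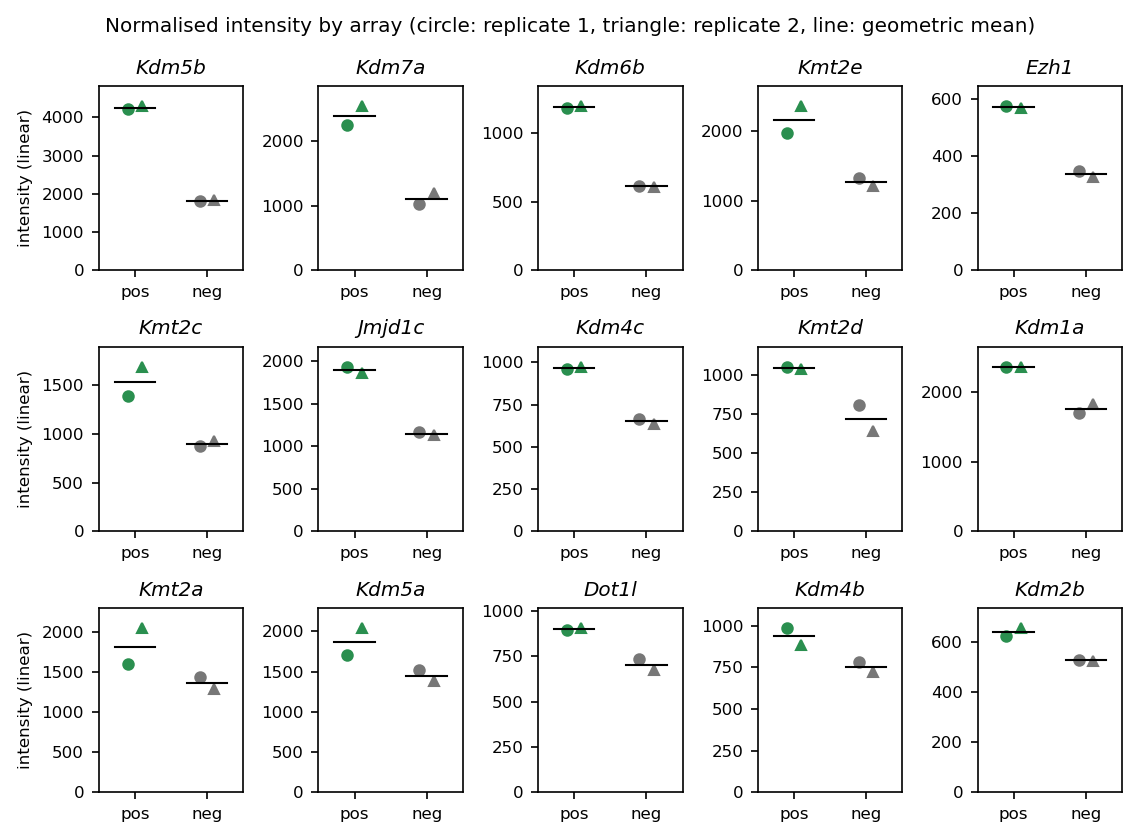
Normalised intensity on a linear scale starting at 0 for the 15 members with an unadjusted p under 0.05, for EGFP-positive (green) and EGFP-negative (grey) arrays; circles are replicate 1, triangles replicate 2 and lines the geometric mean of each fraction. In each panel both positive arrays lie above both negative arrays, and the replicates nearly coincide for Kdm5b and Kdm6b but spread in the positive fraction for Kmt2a, Kmt2c, Kmt2e and Kdm5a.

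Among the 4 marks with both kinds of gene, H3K27 showed the widest gap between the groups as listed. The median log2 difference was -0.27 over 4 writers and core partners and 1.03 over 2 erasers. Partner subunits were counted with the writers for this mark only, and its enzymes lay on both sides, Ezh1 at 0.77 and Ezh2 at -0.30. The medians of writers and erasers were 0.41 and 0.39 for H3K4, 0.10 and 0.31 for H3K9 and 0.28 and 0.27 for H3K36. Kdm6b, a jumonji demethylase of trimethylated H3K27, read 1185.0 and 1198.1 on the positive arrays against 616.0 and 608.0 on the negative arrays. The replicates nearly coincided in both fractions, and the log2 difference was 0.96 ± 0.10 (SE, n = 2 per fraction, limma adjusted p = 0.0290). Kdm6a and Uty, relatives of Kdm6b outside the member set, differed less and were not called. Kdm6a differed by 0.39 ± 0.21 with overlapping fractions (limma adjusted p = 0.402) and Uty by 0.42 ± 0.15 (limma adjusted p = 0.230). Kdm7a, which removes dimethyl groups from H3K27 and H3K9, read 2236.6 and 2537.3 against 1022.0 and 1198.1 (1.11 ± 0.13, limma adjusted p = 0.0416). Replicate 2 was the higher array in both fractions. A second feature of Kdm7a, with 1847.1 and 2101.1 against 744.2 and 857.2, also passed the test (1.30 ± 0.13, limma adjusted p = 0.0280). When 50 was added to the intensities before log2, the adjusted p of Kdm7a was 0.0571.

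The genes of Polycomb repressive complex 2 did not move together. Ezh1 read 577.9 and 570.6 on the positive arrays against 347.2 and 328.1 on the negative arrays, so both positive arrays stood above both negative arrays (0.77 ± 0.10, limma adjusted p = 0.0495). This call lay at the threshold: the adjusted p was 0.05004 without features below the 25th percentile of mean intensity, 0.0546 with a robust variance trend and 0.0518 after 50 was added. Ezh2 read 2383.2 and 2308.7 against 3240.3 and 2561.9, and negative replicate 1 was the highest array (-0.30 ± 0.14, limma adjusted p = 0.353). Eed, which binds the mark and stimulates the enzyme, read 733.2 and 779.4 against 952.6 and 856.4 (-0.26 ± 0.11, limma adjusted p = 0.301). Suz12, the scaffold subunit, read 2083.1 and 1585.9 against 2395.6 and 2045.2, with overlapping fractions (-0.28 ± 0.17, limma adjusted p = 0.463). Leaving out positive replicate 1 gave -0.48 for Suz12, and leaving out positive replicate 2 gave -0.09. The value of Ezh2 was -0.13 without negative replicate 1 and -0.47 without negative replicate 2.

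The 95% interval of Ezh1, from 0.51 to 1.02, did not overlap that of Ezh2, from -0.66 to 0.06. The log2 ratio of Ezh1 to Ezh2 within an array differed by 1.06 between the fractions. An exact permutation test of this ratio, two-sided, gave p = 0.333, the smallest p that 2 against 2 arrays allow. The cell cycle markers, with a median of -1.11, differed more between the fractions than Ezh2, Eed or Suz12.

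Promoter windows of 300 bases (250 before the annotated start and 50 after it), from RefSeq on build GRCm38.p6, were matched for 25 of the 33 genes, with 33 windows. They were searched on both strands for TAATCC, the letters bound by Crx and Otx2, and for the E2F letters TTTCGCGC, TTTGGCGC, TTTCCCGC and TTTGCCGC, E2F being the factor family of cell cycle genes. E2F letters were in 2 of the 33 windows, those of Ezh2 and Suz12, and in 2.26% of all 32851 windows of this length. No E2F match overlapped a TAATCC match. The windows of Ezh2 and Suz12 are shown against that of Ezh1, which held neither motif, because Ezh1 and Ezh2 are alternative subunits; capitals mark the E2F letters. The sign of the difference and the letters did not go together throughout. The windows of Eed, Kdm1b, Setdb1 and Ehmt2, all with differences below 0, held no E2F letters. A match is a description and no evidence of binding.
Ezh1, chr11:101226414-101226713, strand -: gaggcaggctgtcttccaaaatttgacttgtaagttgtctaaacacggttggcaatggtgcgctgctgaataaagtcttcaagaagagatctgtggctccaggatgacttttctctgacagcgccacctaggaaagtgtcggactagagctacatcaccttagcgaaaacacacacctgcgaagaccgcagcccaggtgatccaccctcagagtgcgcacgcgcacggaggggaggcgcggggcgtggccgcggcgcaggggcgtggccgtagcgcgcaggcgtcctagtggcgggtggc
Ezh2, chr6:47594981-47595280, strand -: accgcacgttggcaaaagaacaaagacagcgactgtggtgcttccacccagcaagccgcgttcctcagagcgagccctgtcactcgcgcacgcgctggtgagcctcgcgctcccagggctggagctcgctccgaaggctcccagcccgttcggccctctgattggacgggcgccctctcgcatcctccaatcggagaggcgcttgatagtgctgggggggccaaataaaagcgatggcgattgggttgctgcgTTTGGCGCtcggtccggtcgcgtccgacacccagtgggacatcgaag
Suz12, chr11:79992856-79993155, strand +: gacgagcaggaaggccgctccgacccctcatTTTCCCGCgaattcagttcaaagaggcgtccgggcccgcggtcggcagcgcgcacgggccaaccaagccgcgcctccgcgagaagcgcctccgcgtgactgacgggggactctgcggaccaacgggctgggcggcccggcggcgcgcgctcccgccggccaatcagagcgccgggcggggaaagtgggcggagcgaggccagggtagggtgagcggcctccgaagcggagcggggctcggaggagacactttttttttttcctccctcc

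All 7 erasers assigned to H3K9 had a difference above 0, with a median of 0.31, and none was called by limma. Their fractions did not overlap, against 22.3% of all features in this direction and 30.2% of those at least as bright as the dimmest member. At an unadjusted p under 0.05, 3 were higher, against 9.34% and 16.8%. Jmjd1c, a relative of the Kdm3 enzymes whose activity on H3K9 is disputed, read 1931.5 and 1862.4 on the positive arrays against 1163.7 and 1128.2 on the negative arrays. Its fractions were clearly apart (0.73 ± 0.10, limma adjusted p = 0.0525). It passed the threshold with each array centred on its median (adjusted p = 0.0477), with 50 added (adjusted p = 0.0498) in a fit over genes (adjusted p = 0.0427) and without positive replicate 1 (adjusted p = 0.0475). The adjusted p was 0.112 without positive replicate 2 and 0.328 and 0.294 without negative replicates 1 and 2. Kdm4c, which acts on trimethylated H3K9 and H3K36, read 958.1 and 974.2 against 665.0 and 637.7 (0.57 ± 0.10, limma adjusted p = 0.0785). Its replicates agreed closely in both fractions.

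The other H3K9 erasers differed less. Kdm4b, of the same family as Kdm4c, read 988.6 and 886.8 against 782.7 and 724.4 (0.31 ± 0.11, limma adjusted p = 0.225), and Kdm4a differed by 0.25 ± 0.11. Kdm3a and Kdm3b, which remove mono- and dimethyl groups, differed by 0.37 ± 0.15 and 0.26 ± 0.15. Phf2, which demethylates H3K9 together with a DNA-binding partner, differed by 0.31 ± 0.16. For each of Kdm3a, Kdm3b and Phf2, replicate 2 was lower than replicate 1 in both fractions.

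The letters TAATCC were in 3 of the 33 member windows, those of Jmjd1c, Kdm4c and Kdm2b, and in 7.06% of all windows of that length. The windows of Jmjd1c and Kdm4c are shown because these were the erasers of H3K9 with the largest differences; each gene has a further annotated start whose window held no match. Capitals mark the match, which reads GGATTA on the printed strand and occurs 2 times for Kdm4c. The window of Kdm5b, the member with the largest difference, held neither motif and is shown for comparison. No match says only that these letters are not in this window.
Jmjd1c, chr10:67185500-67185799, strand +: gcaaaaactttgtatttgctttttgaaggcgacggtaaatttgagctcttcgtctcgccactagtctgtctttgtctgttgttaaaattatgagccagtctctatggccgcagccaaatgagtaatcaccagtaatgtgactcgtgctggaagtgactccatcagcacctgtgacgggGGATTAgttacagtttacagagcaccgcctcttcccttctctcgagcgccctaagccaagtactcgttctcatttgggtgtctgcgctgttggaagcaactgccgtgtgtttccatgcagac
Kdm4c, chr4:74242247-74242546, strand +: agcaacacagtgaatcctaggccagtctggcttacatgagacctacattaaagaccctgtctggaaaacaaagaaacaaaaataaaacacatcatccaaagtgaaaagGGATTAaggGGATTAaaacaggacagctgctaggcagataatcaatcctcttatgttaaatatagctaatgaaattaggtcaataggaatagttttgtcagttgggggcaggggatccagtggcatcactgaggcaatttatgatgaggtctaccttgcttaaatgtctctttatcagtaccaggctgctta
Kdm5b, chr1:134559928-134560227, strand +: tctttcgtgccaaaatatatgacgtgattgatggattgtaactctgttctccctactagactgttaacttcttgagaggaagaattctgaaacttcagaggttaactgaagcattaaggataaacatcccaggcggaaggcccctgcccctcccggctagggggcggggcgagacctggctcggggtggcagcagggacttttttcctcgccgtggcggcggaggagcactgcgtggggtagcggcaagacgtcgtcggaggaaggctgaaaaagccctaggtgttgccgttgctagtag

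H3K9 writers lay near 0, with 2 genes above and 2 below, a median of 0.10 and none called by limma or at an unadjusted p under 0.05. Suv39h2, which trimethylates H3K9 in constitutive heterochromatin, read 646.1 and 529.5 against 496.5 and 496.3 (0.24 ± 0.13, limma adjusted p = 0.425). Positive replicate 1 was the highest array. Ehmt1 and Ehmt2, which act as a dimer in euchromatin, differed by 0.22 ± 0.10 and -0.02 ± 0.15. The 95% interval of Ehmt2 ran from -0.41 to 0.36, and its sign turned with each array centred on its median. Setdb1, which silences transposable elements, differed by -0.09 ± 0.12, with overlapping fractions.

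For H3K36 and H3K79 no gene was called by limma. At an unadjusted p under 0.05, 2 of 5 were higher, against 9.34% of all features and 16.8% of those at least as bright as the dimmest member. Setd2, the enzyme of H3K36 trimethylation that travels with RNA polymerase along genes, read 1745.9 and 2996.1 on the positive arrays against 1637.5 and 1860.0 on the negative arrays. Positive replicate 2 stood far above the other 3 arrays, and the fractions overlapped (0.39 ± 0.26, limma adjusted p = 0.532). Without positive replicate 1 this feature of Setd2 differed by 0.78, and without positive replicate 2 by 0.00057. A dimmer feature of Setd2, which read 1826.6 and 2558.1 against 1559.9 and 1786.9, differed by 0.37 ± 0.19 (limma adjusted p = 0.376). Its fractions did not overlap, and positive replicate 2 was again the highest array. Nsd1, a mono- and dimethyltransferase of H3K36, differed by 0.17 ± 0.14, with overlapping fractions.

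The H3K36 erasers Kdm2a and Kdm2b, which bind unmethylated CpG islands, differed by 0.26 ± 0.13 and 0.28 ± 0.10. Kdm2b, which also recruits Polycomb repressive complex 1, read 622.5 and 656.5 against 528.8 and 524.5 (limma adjusted p = 0.221), with both positive arrays above both negative ones. Dot1l, the H3K79 methyltransferase, read 896.1 and 907.6 against 737.3 and 673.9 (0.36 ± 0.10, limma adjusted p = 0.163). Its positive replicates were alike and above both negative arrays.

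**Figure D3:**
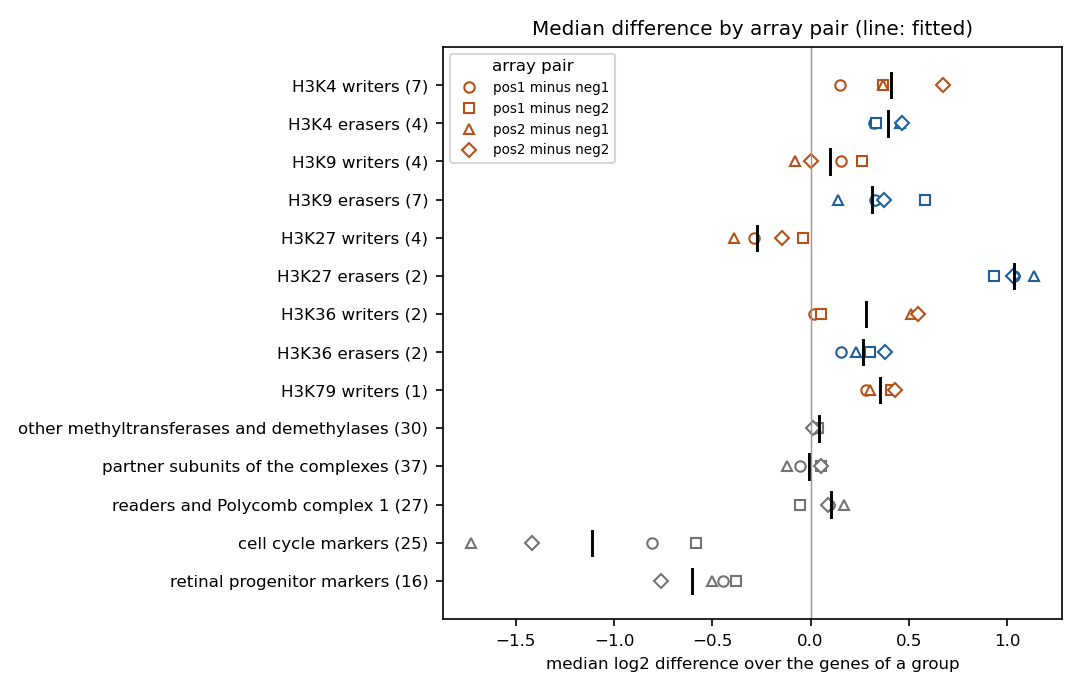
Median log2 difference over the genes of each group (number of genes in parentheses) in each of the 4 pairs of a positive and a negative array, with the median of the fitted differences as a black line. The medians of the H3K27 erasers among the members lie near 1 in all pairs. Those of the H3K27 writers and core partners, which include Ezh1, lie left of 0. The cell cycle markers spread from -0.58 to -1.73 according to the pair.

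The members differed in how well the replicates agreed. The positive replicates lay within 0.1 on the log2 scale for 15 of the 33 genes, among them Kdm5b (0.03), Kdm6b (0.02), Ezh1 (-0.02), Kdm1a (-0.00098), Jmjd1c (-0.05) and Kdm4c (0.02), each as replicate 2 minus replicate 1. Between the same arrays the cell cycle markers differed by a median of -0.83. Of the called genes, Kdm7a was outside this limit, with a difference of 0.18 between the positive replicates.

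Another 6 genes were higher in positive replicate 2 by over 0.2, namely Kmt2a, Kmt2c, Kmt2e, Kdm5a, Nsd1 and Setd2 (0.78). A further 6 were lower there by over 0.2, namely Suv39h2, Ehmt2, Kdm3a, Kdm3b, Phf2 and Suz12 (-0.39). In the negative fraction replicate 2 was the lower array for 27 of 33 genes. Because both groups in the positive fraction move with the array, their differences from the negative fraction depended on which positive array was used, and the part of the cell cycle markers in this was not tested.

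**Figure D4:**
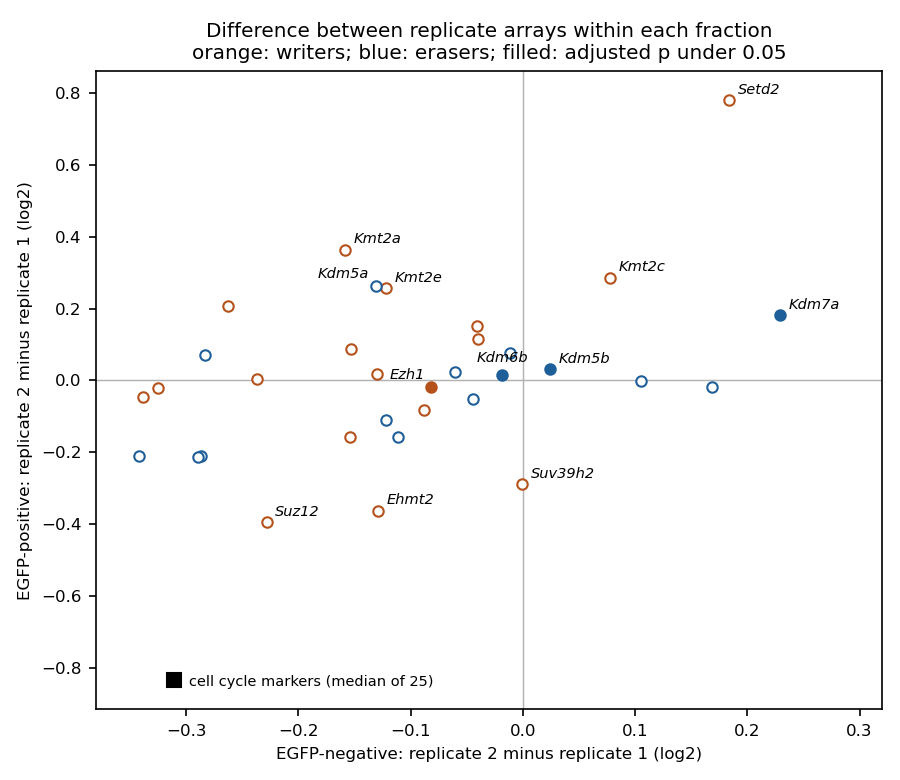
Replicate 2 minus replicate 1 on the log2 scale within the EGFP-negative (x axis) and the EGFP-positive (y axis) fraction for 33 genes, with writers and core partners in orange, erasers in blue and called genes filled; the black square is the median of 25 cell cycle markers. Kdm5b, Kdm6b and Ezh1 lie near the origin, Setd2 is highest in positive replicate 2, and Suz12 and the cell cycle markers are lower there.

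Further enzymes of these families lay on both sides of 0. This list, like the members, was chosen with earlier results of these data known, and a contrast between them was not tested. Of 31 listed, 30 were measured, with 16 above 0 and 14 below and a median of 0.04. Setdb2, a relative of the H3K9 methyltransferase Setdb1, was the 1 gene of this outside list that was called. It read 420.1 and 412.3 on the positive arrays against 231.2 and 242.0 on the negative arrays (0.82 ± 0.10, limma adjusted p = 0.0429). Its replicates lay close together and its fractions apart. The adjusted p was 0.0933 without positive replicate 2 and 0.317 and 0.251 without negative replicates 1 and 2. At an unadjusted p under 0.05, 6 were higher and 3 lower, against 9.34% and 9.83% of all features. Intensities in this list ran from 76.3 to 2333.6. Some of its genes were thus dimmer than Setd7, the dimmest of the 33 members (297.9 to 336.6), and the 2 sets were not compared at equal brightness.

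Partner subunits of the enzyme complexes also had a median near 0 (-0.01 over 37 of 38 listed genes), with 18 above 0 and 19 below. At an unadjusted p under 0.05, 8 were higher and 6 lower, against 9.34% and 9.83% of all features. Gse1, a subunit of the CoREST complex of Kdm1a, rose and was the highest, with 1608.8 and 1736.9 against 740.0 and 698.9 (1.22 ± 0.11, limma adjusted p = 0.0198). Rbbp7, a histone-binding subunit shared by Polycomb repressive complex 2 and histone deacetylase complexes, fell by 0.77 ± 0.10 on the log2 scale, with 1134.2 and 1114.9 against 1976.9 and 1865.9 (limma adjusted p = 0.0489). Both had replicates that agreed within each fraction and fractions that did not overlap. The other listed subunits of Polycomb repressive complex 2 outside the members went both ways, and none was called. Jarid2 (0.65), Phf1 (0.40) and Mtf2 (0.13) lay above 0, and Aebp2 (-0.27), Phf19 (-0.42), Rbbp4 (-0.22) and Epop (-0.10) below. Rbbp7 differed in the direction of Ezh2, Eed and Suz12, and was the 1 gene among the 4 to pass the test. Its adjusted p was 0.0598 with a robust variance trend, 0.0554 in a fit over genes, 0.114 without positive replicate 2 and 0.329 and 0.263 without negative replicates 1 and 2. For Gse1 it was 0.199 and 0.191 without negative replicates 1 and 2.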

How the data were processed

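RNA of each fraction was hybridised to Affymetrix whole-transcript arrays, per the labels' protocols. The deposited values are normalised intensity, 1 column per array, for which the submitters' processing notes name RMA and the build mm8; version and filters are not stated there. RMA usually gives log2 values; a linear scale was inferred here from the lowest and highest values, 18.9 and 36625.2, and all differences rest on it. Log2 was taken with no pseudocount. Features were named through the platform annotation, and the 33 members kept the same symbol in RefSeq's GRCm38.p6 gene table by Entrez number.

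Positive minus negative differences came from limma 3.58.1 under R 4.3.3 (lmFit, eBayes without trend) over all 22431 features and 4 arrays, without a replicate term. P-values are two-sided, Benjamini-Hochberg adjusted over all features, and called under 0.05; errors are moderated SE with 5.26 degrees of freedom. Precision is limited by the number of arrays: the smallest difference called was 0.75. The code was tested on simulated data.

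Each gene was assigned to the mark it is best known for. The 34 genes and all lists were chosen with earlier results of these data known. All members are named; array values are given for those with an unadjusted p under 0.05 and, chosen after their values were seen, for the remaining H3K27 writers, Suv39h2 and Setd2. Of other lists, called genes are named, or the 2 with the largest difference. For the ganglion cell list these were Slc17a6 and Atoh7, and for the cell cycle list Bub1 and Pcna. For the erythroid to pigment cell list they were Kdr and Csf1r. Kdm6a, Uty and the uncalled subunits of Polycomb repressive complex 2 outside the members were named after their values were seen, without alternatives. Alternatives covered scaling, variance trend, a brightness filter, an offset, the feature rule, a replicate term and leaving out each array; for the genes outside the members they were added after seeing the data.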

Additional observations from a re-analysis of the deposited data

How the results depend on the processing

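Across scaling, variance, filter, offset and feature-rule alternatives, limma called 3 to 5 members higher and 0 lower, and the median log2 difference of the members was 0.29 to 0.33. Leaving out 1 array at a time gave 0 to 667 features higher and 0 to 762 lower, 0 to 8 members higher, 9 to 13 members higher and 0 to 1 lower at an unadjusted p under 0.05, and a median of 0.24 to 0.37. An arm left with 1 array was assumed to vary like the other. The share of all features at the unadjusted level was not counted for the fits that left out an array. Their member counts at that level have no background to be read against. With 50 added before log2, 17 features were lower and 1 member, Eed, was lower at an unadjusted p under 0.05. With the mean of a gene's features, 51 genes were lower. Centring each array on its median gave 0.00094 for Ehmt2, and leaving out 1 array -0.20 to 0.16. No other member changed sign in any alternative.

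The labels do not say what a replicate number marks, so samples share only a number. Deviations of same-numbered arrays had a Pearson correlation of 0.48 across all features. With a replicate block limma called 1377 features higher and 1500 lower. It called 10 members higher (the 4 called without it, Jmjd1c, Kdm1a, Kdm4c, Kmt2c, Kmt2d and Kmt2e) and 0 lower. At an unadjusted p under 0.05, 20 members were higher and 2 lower. The share of all features at that level was not counted for this fit. The member counts of this fit therefore cannot be set against the whole array at that level.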

Other observations

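Readers of these marks and subunits of Polycomb repressive complex 1 were measured for 27 of 31 listed genes. None was called by limma, and the median log2 difference was 0.10. At an unadjusted p under 0.05, 6 were higher and 7 lower, against 9.34% and 9.83% of all features. The largest differences were those of Pcgf5, a ring finger subunit of Polycomb repressive complex 1, and Cbx5, which encodes the heterochromatin protein HP1 alpha. Pcgf5 read 454.7 and 309.0 on the positive arrays against 669.6 and 590.0 on the negative arrays (-0.75 ± 0.20, limma adjusted p = 0.146). Cbx5 read 1341.0 and 1076.0 against 2191.0 and 1785.2 (-0.72 ± 0.16, limma adjusted p = 0.111). Both had positive arrays below both negative arrays, with positive replicate 2 the lowest. Without positive replicate 1 Pcgf5 differed by -1.02 and Cbx5 by -0.88, and without positive replicate 2 by -0.47 and -0.56. The other HP1 genes, Cbx1 and Cbx3, chosen after their values were seen, differed by -0.42 ± 0.15 and -0.65 ± 0.12 (limma adjusted p = 0.225 and 0.0814). Readers and writers of H3K9 methylation were not compared by a test.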
